A study of Mus musculus with 4 samples.

Results

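Open chromatin near 38 genes of the semaphorin, plexin, Slit, Robo, netrin and Unc5 families was compared between day 2 (d2) and day 4 (d4) of mouse embryonic stem cell differentiation. The measurement was ATAC-seq, in which a transposase cuts accessible DNA, and each library was deposited as a list of peaks. Joining peaks that shared 1 bp or more across the 4 libraries left 40910 union regions. A region belonged to these families when the nearest start of a protein-coding transcript, within 100 kb, was that of a listed gene. This gave 129 regions of the 35041 that lay within 100 kb of any protein-coding gene. They fell to 36 of the 38 genes, and Plxnb3 and Sema3g had none. Assignment by distance does not show which gene a region acts on.

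All libraries came from the wild-type line ES-E14TG2a (mESCs), grown as embryoid bodies under a cardiogenic differentiation protocol. The d2 cells were collected before, and the d4 cells after, reaggregation with Activin A, BMP4 and VEGF. There were 2 libraries at each time point, from independent differentiation experiments, and the cells were not sorted, so that fewer cells of a type and less accessibility per cell cannot be told apart. The question was which regions changed accessibility over the window in which an endothelial programme starts. The study has 1 cell line and no untreated d4 culture, so time and treatment cannot be told apart.

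Semaphorins are secreted or membrane-bound guidance cues, and plexins are their main receptors. Class 3 semaphorins are secreted and mostly need neuropilins as co-receptors, with Sema3e as the exception that binds plexin D1 directly. Activated plexins act on small GTPases of the R-Ras and Rap families and change adhesion and the cytoskeleton. Slits signal through Robo receptors, and netrin-1 signals through DCC and the Unc5 receptors. All of these were first known from axon guidance and also shape the growing vessels and the heart.

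A region was called gained when both d4 libraries and neither d2 library had a peak there, lost in the reverse case, and shared when all 4 libraries had one. The strongest gained and lost regions carry most of what follows, so 201 bp around the summit of the highest peak are shown for the 3 gained and the 2 lost regions with the highest fold enrichment in the weaker of their 2 libraries, 1 region per gene. Each line gives the gene, the position in mm10 on the plus strand, the class and the sequence from 5′ to 3′ as read from GRCm38. Capitals mark letters that match 1 of the 8 motifs searched, which are spelled out with the motif counts.

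Unc5c, chr3:141549732-141549932, gained: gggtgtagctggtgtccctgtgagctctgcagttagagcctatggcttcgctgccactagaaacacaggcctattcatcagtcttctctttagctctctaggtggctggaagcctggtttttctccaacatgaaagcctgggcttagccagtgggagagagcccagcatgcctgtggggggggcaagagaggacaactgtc
Sema3e, chr5:13974789-13974989, gained: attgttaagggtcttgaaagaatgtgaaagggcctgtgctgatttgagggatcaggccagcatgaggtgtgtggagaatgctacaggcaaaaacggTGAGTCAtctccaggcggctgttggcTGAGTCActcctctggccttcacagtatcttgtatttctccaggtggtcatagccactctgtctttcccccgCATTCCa
Sema5a, chr15:32266539-32266739, gained: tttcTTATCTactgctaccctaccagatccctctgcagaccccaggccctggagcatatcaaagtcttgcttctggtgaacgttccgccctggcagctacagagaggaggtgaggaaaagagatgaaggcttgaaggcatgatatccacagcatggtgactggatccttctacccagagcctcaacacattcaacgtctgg
Sema6d, chr2:124145590-124145790, lost: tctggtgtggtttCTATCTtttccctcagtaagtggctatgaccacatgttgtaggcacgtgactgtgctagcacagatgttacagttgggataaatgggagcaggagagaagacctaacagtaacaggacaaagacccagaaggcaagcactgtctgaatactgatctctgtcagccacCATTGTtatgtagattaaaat
Slit2, chr5:48263432-48263632, lost: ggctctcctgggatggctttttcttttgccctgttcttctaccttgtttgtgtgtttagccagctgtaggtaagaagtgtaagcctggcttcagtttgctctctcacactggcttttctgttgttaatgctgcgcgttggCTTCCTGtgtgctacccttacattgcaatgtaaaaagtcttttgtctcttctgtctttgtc

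The Sema3e sequence held the AP-1 letters TGAGTCA in 2 places, starting 4 bp before and 22 bp after the summit, and the TEAD letters CATTCC 94 bp after it. The Sema5a sequence held a GATA match 96 bp before the summit. The Sema6d sequence had a GATA match 87 bp before and a SOX match 80 bp after the summit, and the Slit2 sequence an ETS match 40 bp after it. The Unc5c sequence, from the strongest gained region here, held none of the 8 motifs within 100 bp of the summit. A match of letters is a description and not a binding site.

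Of the 129 regions, 15 were gained (11.6%, 95% Wilson interval 7.17 to 18.3), 22 were lost (17.1%, 11.5 to 24.5) and 29 were shared (22.5%, 16.1 to 30.4). Over all 35041 regions, 8.48% were gained, 13.2% were lost and 31.9% were shared. The gained and lost shares of the guidance genes were therefore near the background with all peaks. With peaks reaching 10 in −log10 q the gained share was 18.3%, against 7.10% of all regions. With the 15000 best peaks of each library it was 18.7%, against 9.41%, and these differences were not tested. All that follows on gained and lost regions describes individual genes. The shared share lay below the background, whose value was above the upper end of the interval. Within promoters and within distal regions, taken separately next, it was also lower, but the background lay within the intervals. Another 26 regions (20.2%, 14.1 to 27.9) had a peak in 1 d4 library alone, against 12.97% of all regions, a value below that interval. A peak in 1 d2 library alone was present at 26 regions (20.2%, 14.1 to 27.9), against 21.5%, a value within it. For 1 d4 library alone, promoters had 12.2% (5.73 to 24.2), against 5.14% of all promoter regions. Distal regions had 25.0% (16.8 to 35.5), against 21.1% of all distal regions, and these differences were not tested. The intervals cover counting error only, and regions of a gene are not independent of each other. No p-value is given for gained and lost calls, because the smallest that an exact permutation test can reach with 2 against 2 libraries is 0.333.

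Promoter and distal regions fell into different classes. Regions within 1000 bp of any transcript start were counted as promoters, and 49 of the 129 regions were of this kind. Of these, 3 were gained (6.12%, against 2.55% of all promoter regions), 4 were lost (8.16%, against 9.66%) and 24 were shared (49.0%, against 55.0%). Of the 80 distal regions, 12 were gained (15.0%, against 14.6% of all distal regions), 18 were lost (22.5%, against 16.9%) and 5 were shared (6.25%, against 8.02%). The background shares lay within the Wilson intervals of the guidance genes in all 6 cases. By gene, 9 of 36 (25.0%) had a gained region, against 15.2% of all protein-coding genes with a region, and 16 of 36 (44.4%) had a lost region, against 24.6%. The guidance genes held 3.58 regions per gene and all genes 2.33, and more regions give more chances of a call. A region of either kind was present at 18 of the 36 genes and at 34.9% of all protein-coding genes with a region.

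**Figure D1:**
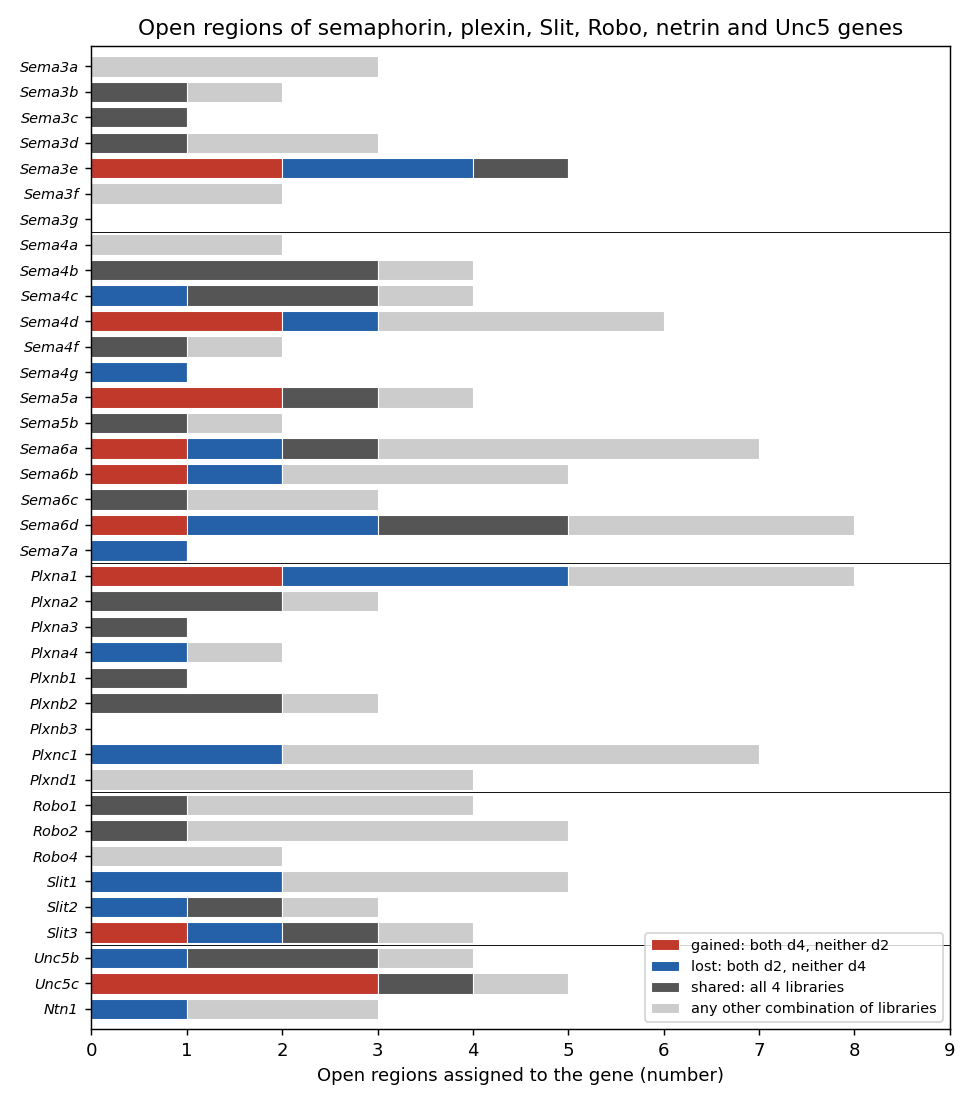
Bars give the number of open regions assigned to each of the 38 genes, split into gained, lost, shared and all other combinations of libraries, with lines between the families. Unc5c had 3 gained and no lost region, Plxna1 had 2 gained and 3 lost, and 18 of the 36 genes with a region had neither.

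The 4 libraries held 70, 72, 66 and 63 of the 129 regions, in the order d2 replicates 1 and 2 and d4 replicates 1 and 2. Their relative depth, solved from the peak lists as background coverage, was 0.752, 0.640, 1 and 0.985. The smallest summit pileup among called peaks was 6 at d2 and 7 at d4, so a region without a peak is one without a call at this depth and not one shown to be closed. The part of depth in the gained and lost counts was not tested. Regions that the 100 kb limit only just admitted were 1 of Slit3 at 96.4 kb and 1 of Unc5c at 84.1 kb, both gained, and the first 2 beyond it were regions of Unc5b at 103 and 105 kb, each with a peak in 1 d4 library (fold enrichment 6.72 and 7.01).

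The strength of a peak is given below as the deposited fold enrichment, the pileup of fragments at the summit over the local background. The gained regions of the guidance genes were strong for their class. The fold enrichment in the weaker of the 2 d4 libraries had a median of 9.11 over the 15 regions and of 6.81 over all 2972 gained regions, and 12 of the 15 lay above that second value. The lost regions were ordinary, with a median of 6.64 over 22 regions and of 6.62 over all 4638 lost regions. These medians are descriptions without a test.

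**Figure D2:**
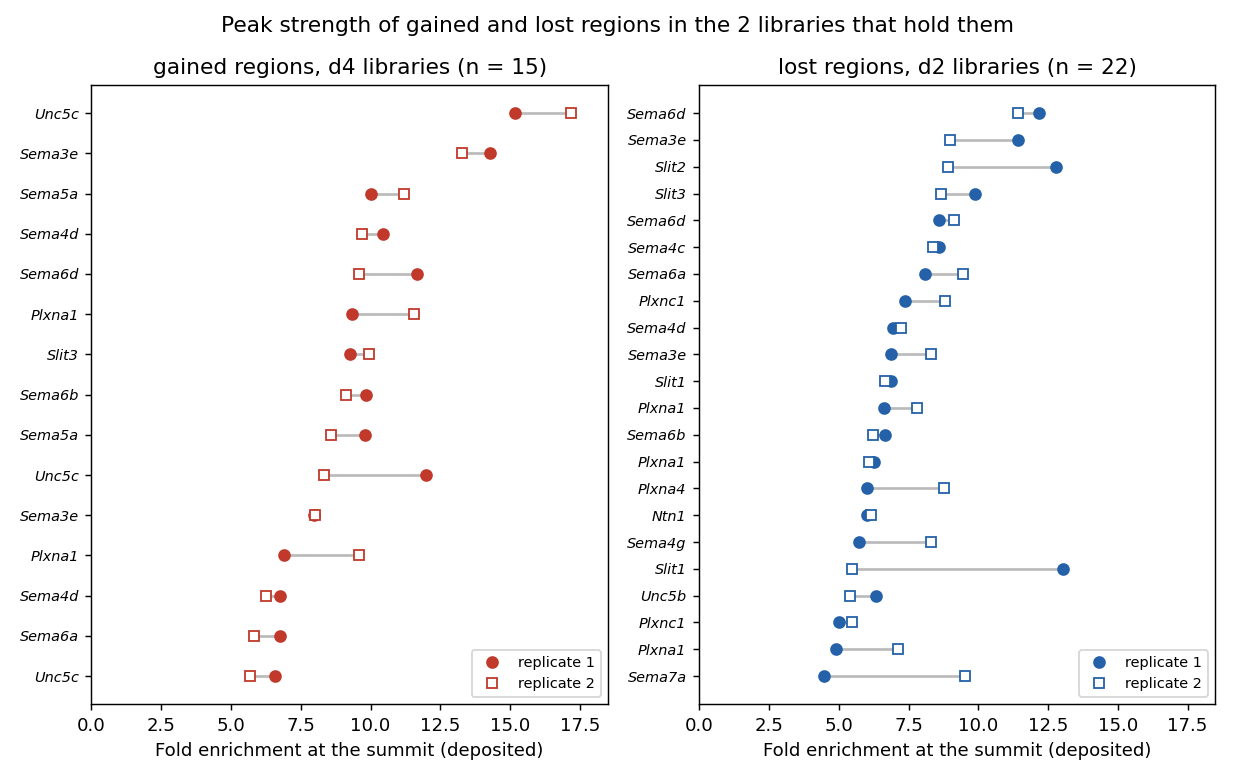
Fold enrichment at the summit in the 2 libraries that hold each of the 15 gained regions (left, d4) and 22 lost regions (right, d2), 1 row per region, ordered by the lower value. One gained region of Unc5c and one of Sema3e stand above the rest at 13.3 and more, and Slit1 and Sema7a each had a lost region with values far apart between replicates.

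Among the secreted class 3 semaphorins, Sema3e was the only gene with a gained or lost region, and it had 2 of each. The stronger gained region (chr5:13974601-13975006) lay between genes 50.3 kb upstream of the start, with fold enrichments of 14.3 and 13.3 in d4 replicates 1 and 2 and no peak at d2. By its lower value it ranked 34 of 2972 gained regions. The other gained region (chr5:13959629-13959898), 65.4 kb upstream, was weaker, at 7.98 and 8.03.

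The lost regions of Sema3e lay on the other side of the start, in an intron, 6.89 and 13.8 kb downstream. The nearer (chr5:14032164-14032504) had fold enrichments of 6.86 and 8.31 in d2 replicates 1 and 2, and the farther (chr5:14039109-14039431) had 11.4 and 8.97. Neither had a peak at d4. The Sema3e promoter was shared, with summit pileups of 17 and 20 at d2 and 25 and 11 at d4, ranges that overlap. By nearest coding start, upstream gain and intronic loss thus stood around a promoter that was called in all 4 libraries. When the nearest gene of any type was used, the weaker gained region and both lost regions left Sema3e. The weaker gained and the nearer lost region also lost their call at −log10 q of at least 10. Both gained regions dropped out under a limit of 50 kb.

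The other class 3 genes showed less. The promoter of Sema3a, which repels axons through neuropilin-1 and A-type plexins, had peaks at d4 of 8.22 and 6.56 and at d2 of 5.15 in replicate 1, with none in d2 replicate 2. The promoters of Sema3c, a cue for outflow tract cells, and Sema3d were shared. Sema3b had a shared region 3.28 kb upstream, and the promoter region of Sema3f had a peak in both d2 libraries (6.01 and 7.88) and in d4 replicate 2 (5.31).

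Of the 13 membrane semaphorin genes, 8 had a gained or lost region, against 34.9% of all genes. Their 49 regions held 7 gained (14.3%) and 8 lost (16.3%) ones, against 8.48% and 13.2% of all regions. Sema5a, which carries thrombospondin repeats beside its semaphorin domain, had 2 gained and no lost region. One overlapped an exon 21.6 kb downstream of the start (chr15:32266388-32267044), with fold enrichments of 10.0 and 11.2 in d4 replicates 1 and 2. The other lay in an intron 43.7 kb downstream (chr15:32288531-32288741), at 9.79 and 8.60. Its promoter was shared, with pileups of 23 and 26 at d2 and 21 and 22 at d4 (difference −0.19, limma adjusted p = 0.729).

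Sema6b, a class 6 transmembrane ligand of plexin A4, had the only gained region of the 38 genes that covered the start of one of the gene's own coding transcripts. That region (chr17:56133796-56134273) had fold enrichments of 9.82 and 9.11 in d4 replicates 1 and 2 and none at d2. It covered the start of the shorter of 2 coding transcripts. A lost region (chr17:56141832-56142477) lay 1.49 kb upstream of the longer transcript, at 6.64 and 6.24 in d2 replicates 1 and 2.

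Sema4d, a ligand of plexin B1, had 2 gained regions and 1 lost region, all upstream of a coding start. The stronger gained region (chr13:51756659-51756906), at 10.5 and 9.69, covered starts of noncoding Sema4d transcripts and was counted as a promoter for that reason. The second (chr13:51813988-51814263), 20.2 kb upstream, had 6.76 and 6.27. The lost region (chr13:51808214-51808387), 14.5 kb upstream, had 6.94 and 7.25 at d2.

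Sema6d, a class 6 semaphorin known for its part in heart morphogenesis, had the strongest lost region of these families. It lay in an intron 55.4 kb downstream of a start (chr2:124145418-124145825), with fold enrichments of 12.2 and 11.4 in d2 replicates 1 and 2, and ranked 150 of 4638 lost regions. A second lost region (chr2:124675637-124676006), beyond the gene's end, had 8.59 and 9.15. One gained region overlapped an exon (chr2:124662364-124662621), at 11.7 and 9.58 in d4 replicates 1 and 2. Both Sema6d promoters were shared, with overlapping pileups of 20 and 11 at d2 and 13 and 11 at d4 at the first, and of 31 and 25 against 28 and 36 at the second.

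Sema6a, a ligand of plexins A2 and A4, had a gained region in an intron 14.4 kb downstream of a start, at 6.75 and 5.83, and a lost region 64.5 kb upstream, at 8.08 and 9.44. Loss at the gene's own start was seen at Sema4g and Sema7a. The single region of Sema7a, a GPI-anchored ligand of plexin C1 and β1 integrins, covered its start (chr9:57940051-57940779) with 4.48 and 9.52 in d2 replicates 1 and 2. The lower value is near the weakest that was called, and the region lost its call at −log10 q of at least 5. The single region of Sema4g (chr19:44988948-44989505) had 5.72 and 8.31. Sema4c, a ligand of plexin B2, had a lost region 34.7 kb upstream, in the neighbouring gene Fam178b, at 8.59 and 8.39, while its own promoter was shared. That lost region was counted as a promoter because of a transcript start of another gene. It left Sema4c when the nearest gene of any type was used.

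Of the plexins, 3 of 8 genes with a region had a gained or lost one (37.5%, against 34.9% of all genes). Plxna1, which encodes a receptor that pairs with neuropilins, changed most in number and in both directions. Its gained regions lay inside the gene, 12.3 kb (chr6:89344921-89345423) and 5.56 kb (chr6:89351597-89352161) downstream of a start. The first had fold enrichments of 9.32 and 11.6 in d4 replicates 1 and 2, and the second 6.89 and 9.58. The first also covered the start of Gm44207, a transcript of no settled type.

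The 3 lost regions of Plxna1 were all weaker. They lay 1.66, 23.4 and 69.1 kb downstream of a start, with fold enrichments in d2 replicates 1 and 2 of 4.90 and 7.12, of 6.62 and 7.81, and of 6.28 and 6.08. All of them lost their call at −log10 q of at least 10, when the gained regions kept theirs. No Plxna1 promoter region was shared by the 4 libraries.

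Plxnc1, the receptor of Sema7a, had 2 lost regions and none gained. One lay 128 bp upstream of the start (chr10:94944963-94945368), at 5.00 and 5.47, and the other in an intron 38.9 kb downstream (chr10:94905813-94905941), at 7.36 and 8.81. A region just inside the start had a peak in both d2 libraries (5.67 and 4.45) and in d4 replicate 1 (6.43), so the start was not without a peak at d4. Plxna4 had a lost region 17.5 kb upstream (chr6:32605710-32605934), at 6.01 and 8.76.

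Plxnd1, the receptor of Sema3e in endothelial cells, had 4 regions and none that was gained, lost or shared. Its promoter peak was at 6.76 and 4.90 in the d4 replicates and at 6.17 in d2 replicate 1. A region 12.9 kb upstream had one in both d2 libraries (7.78 and 6.75) and in d4 replicate 1 (5.17). The calls at both therefore rested on 1 library.

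**Figure D3:**
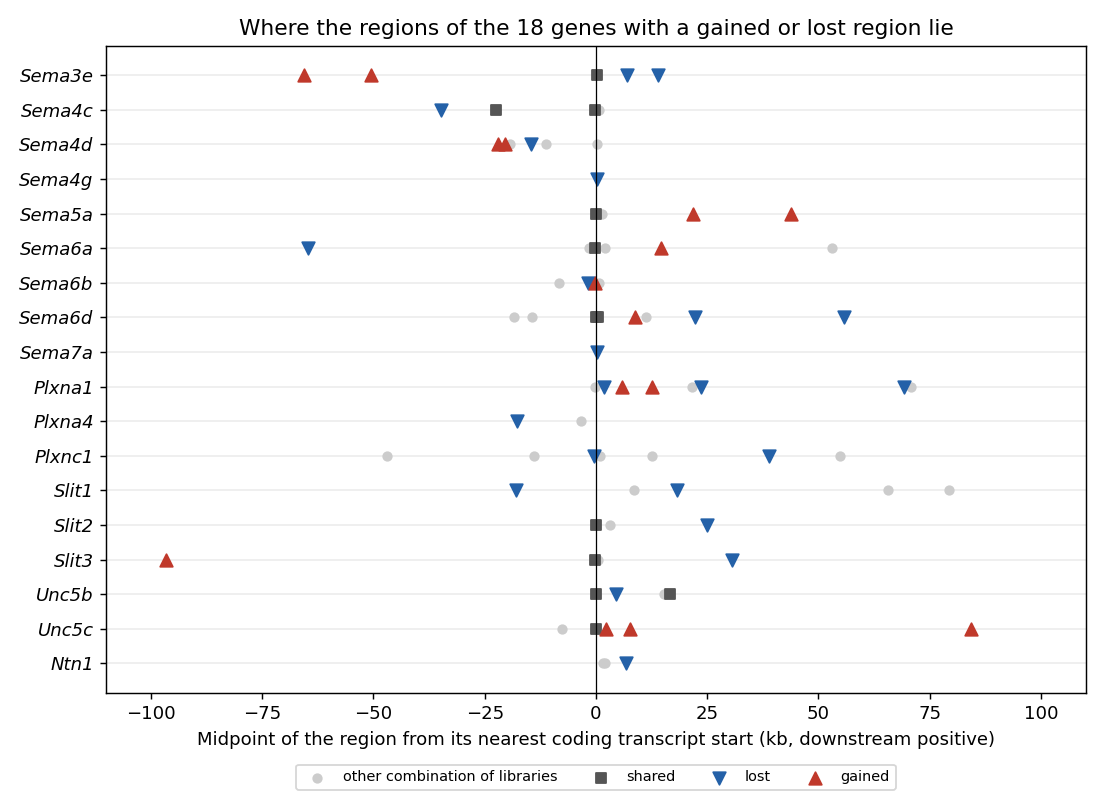
Each symbol is a region of the 18 genes with a gained or lost region, placed by the distance of its midpoint from the nearest coding transcript start in kb, with positive values downstream. Gained regions (upward triangles) reach from far upstream at Slit3 to far downstream at Unc5c, and those of Sema3e lie upstream while its lost regions lie downstream.

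The 3 Slit genes, ligands of the Robo receptors, together had 4 lost regions and 1 gained region. Slit2 had a lost region over an exon 24.9 kb downstream of a start internal to the gene (chr5:48263400-48263669), with fold enrichments of 12.8 and 8.90 in d2 replicates 1 and 2. Slit1 had 2 lost regions, 18.2 kb downstream (chr19:41725125-41725301) and 17.99 kb upstream (chr19:41761656-41761813). The first had 13.02 in d2 replicate 1 and 5.47 in d2 replicate 2, a wide gap between replicates, and the second 6.88 and 6.67.

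Slit3 had a lost region in an intron 30.4 kb downstream (chr11:35151577-35151861), at 9.87 and 8.66. Its gained region (chr11:35024398-35024785), 96.4 kb upstream, had 9.28 and 9.96 in d4 replicates 1 and 2. The promoters of Slit2 and Slit3 were shared. The Slit3 promoter had pileups of 23 and 28 at d2 and 17 and 20 at d4, and the Slit2 promoter of 30 and 35 at d2 and 33 and 43 at d4.

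None of the 3 Robo genes had a gained or lost region. Robo1 and Robo2 had a shared promoter, and Robo1 had 3 further regions, each with a peak in 1 d4 library alone. Robo4, the Robo receptor of endothelial cells, had 2 regions, 1 with a peak in a library of each time point and 1 with a peak in 1 d2 library. No region was called at its promoter.

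Unc5c, a repulsive netrin receptor, had the most gained regions of the 38 genes, 3, and no lost one. The strongest lay in an intron 84.1 kb downstream of the start (chr3:141549663-141550079), with fold enrichments of 15.2 and 17.2 in d4 replicates 1 and 2, pileups of 53 and 50 fragments, and no peak at d2. It ranked 9 of 2972 gained regions by its lower value. The 2 others lay close to the start. One was in an intron 7.48 kb downstream (chr3:141473076-141473407), at 12.0 and 8.32, and one over an exon 2.22 kb downstream (chr3:141467821-141468093), at 6.58 and 5.68. The absence of lost regions held for assignment by coding starts. When the nearest gene of any type was used, the 3 gained regions stayed with Unc5c. The net of gained and lost regions then fell from 3 to 1, because lost regions entered.

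The Unc5c promoter was shared, with pileups of 37 and 48 at d2 and 56 and 58 at d4, which do not overlap. The difference did not pass the test below. Unc5b, the netrin receptor of endothelial tip cells, had a lost region in an intron 4.22 kb downstream (chr10:60826598-60827165), at 6.33 and 5.42 in d2 replicates 1 and 2, and its promoter was shared. Ntn1, which encodes netrin-1, had a lost region in an intron 6.61 kb downstream (chr11:68394065-68394217), at 6.00 and 6.17. All 3 of its regions had peaks at d2 only, 1 of them in both libraries.

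Individual calls were followed under stricter peak selection. When only peaks reaching 10 in −log10 q entered, 12 of the 15 gained and 8 of the 22 lost regions kept their class and gene. With the 15000 best peaks of each library, 13 and 8 did. No lost region of Plxna1, Plxna4, Plxnc1, Slit1, Unc5b, Ntn1, Sema4d, Sema4g or Sema7a kept class and gene under either selection. Over all regions the counts fell from 2972 to 1444 gained and from 4638 to 2366 lost under the first of these, and to 2029 and 1996 under the second. The lost share of the guidance genes was 16.9% under the first, against 17.1% with all peaks, and the difference between gained and lost calls was not tested. Over the 7 alternatives that kept all 4 libraries, 8 gained and 4 lost regions kept both throughout. The gained ones were 2 of Sema5a, 2 of Unc5c and 1 each of Sema4d, Sema6b, Sema6d and Plxna1, and the lost ones were 1 each of Slit2, Slit3, Sema6b and Sema6d. The strongest gained regions of Unc5c and Sema3e dropped out only under a limit of 50 kb, since they lie farther from the start.

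**Figure D4:**
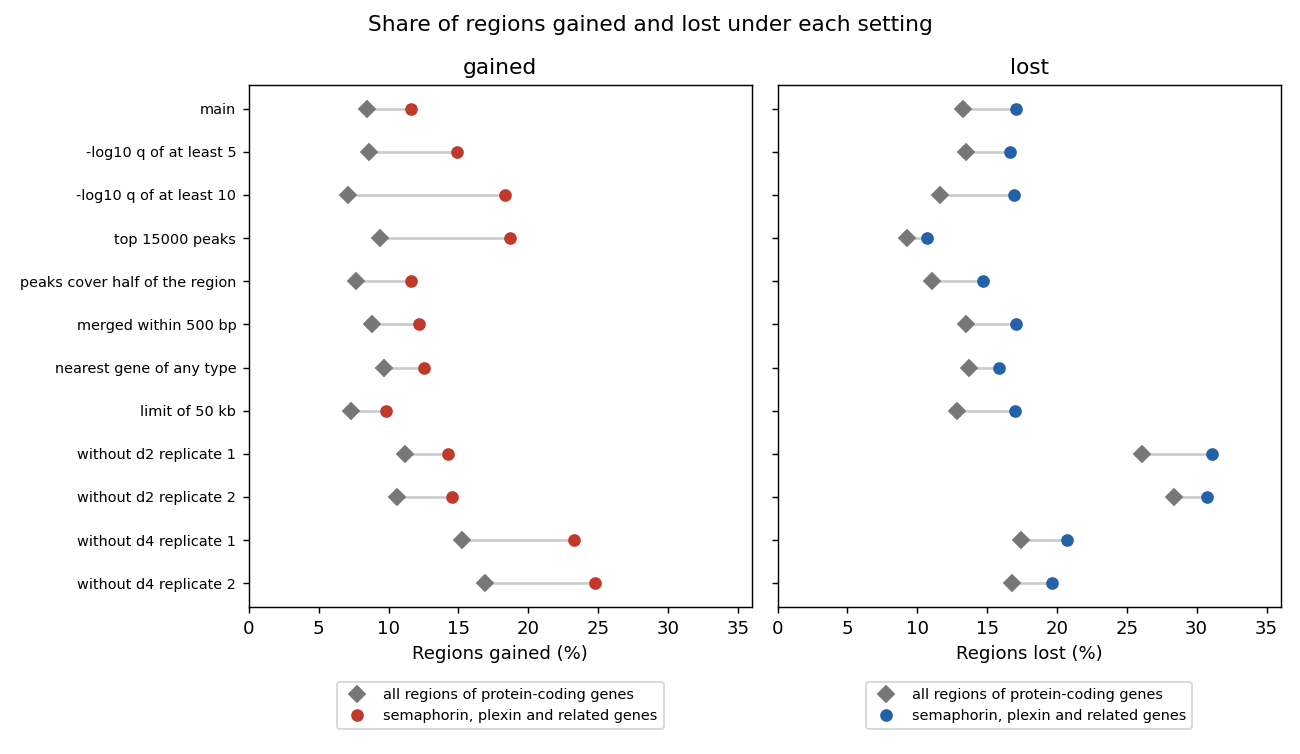
The share of regions gained (left) and lost (right) in percent, for the guidance genes (circles) and for all regions of protein-coding genes (diamonds), under the reported setting and 11 alternatives. The gained share of the guidance genes was 18.3% for peaks reaching 10 in −log10 q and 18.7% for the 15000 best peaks, against 7.10% and 9.41% of all regions, and leaving out a library raised both.

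Peak height could be tested in the 29 shared regions, a measure that the gained and lost calls do not use. The summit pileup of each library was centred on its median over all 11494 shared regions on the log2 scale and compared between d4 and d2 with limma, with Benjamini-Hochberg adjustment over all of them at 0.05. Over all shared regions 706 (6.14%) were higher and 319 (2.78%) were lower at d4. Of the 29, 3 were higher and 3 were lower. The median difference was −0.19 over the 29 and 0.06 over all shared regions. Of the 29 differences 9 were above 0, against 6365 of the 11494. Without centring the median over all shared regions was −0.45, so all differences are relative to the median shared region.

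The lower regions were promoters of membrane semaphorins. The Sema6a promoter, at its start, had pileups of 57 and 64 fragments at d2 and 31 and 33 at d4, with no overlap, and a difference of −0.92 ± 0.20 (SE, n = 2 per time point, limma adjusted p = 0.00134). The call was lost with the deposited fold enrichment in place of the pileup (limma adjusted p = 0.266) and held in the other 9 alternatives. The Sema4f promoter had 32 and 45 at d2 and 17 and 17 at d4, a difference of −1.17 ± 0.26 (limma adjusted p = 0.00188). It passed in all 10 alternatives, with adjusted p-values up to 0.0341 in limma.

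A promoter of Sema4b, a class 4 semaphorin, had 22 and 46 at d2 and 12 and 16 at d4, a difference of −1.21 ± 0.29 (limma adjusted p = 0.00462). The d2 replicates differed widely here. Without d2 replicate 2 the limma adjusted p was 0.132, and without d4 replicate 1 it was 0.123. With quantile normalisation it was 0.0696 in limma, and with the deposited fold enrichment 0.0923. A second Sema4b promoter had 22 and 39 at d2 and 17 and 17 at d4, and did not pass (−0.79, limma adjusted p = 0.0586). Of the 12 shared regions of membrane semaphorins, 3 were lower, none was higher and 11 had a difference below 0. Over all 11494 shared regions 6365 had a difference above 0.

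The higher regions belonged to a plexin, a Robo receptor and a secreted semaphorin. A region 8.81 kb upstream of Plxna2, a receptor for Sema6a, had pileups of 13 and 9 at d2 and 29 and 24 at d4, a difference of 1.28 ± 0.31 (limma adjusted p = 0.00477). The Plxna2 promoter itself had 25 and 23 at d2 and 23 and 26 at d4, with a difference of 0.02. The Robo1 promoter had 33 and 29 at d2 and 64 and 52 at d4, a difference of 0.89 ± 0.21 (limma adjusted p = 0.00320). The Sema3d promoter had 35 and 25 at d2 and 55 and 43 at d4, a difference of 0.71 ± 0.23 (limma adjusted p = 0.0392).

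The 3 higher calls depended on the scaling and on single libraries. Without centring, the limma adjusted p-values were 0.159 for Plxna2, 0.462 for Robo1 and 0.717 for Sema3d, although the differences stayed above 0 in every alternative run. With the deposited fold enrichment they were 0.141, 0.134 and 0.479. With quantile normalisation the values for Robo1 and Sema3d were 0.110 and 0.281, and without a variance trend 0.0608 and 0.159. Without d4 replicate 1 they were, for Plxna2, Robo1 and Sema3d in turn, 0.145, 0.151 and 0.428. Without d2 replicate 2 they were 0.0616 for Plxna2 and 0.428 for Sema3d, and without d4 replicate 2 the value for Sema3d was 0.0939. Among netrin receptors, the largest differences that did not pass were 0.74 at an internal region of Unc5b (limma adjusted p = 0.0650) and 0.43 at the Unc5c promoter (0.145).

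**Figure D5:**
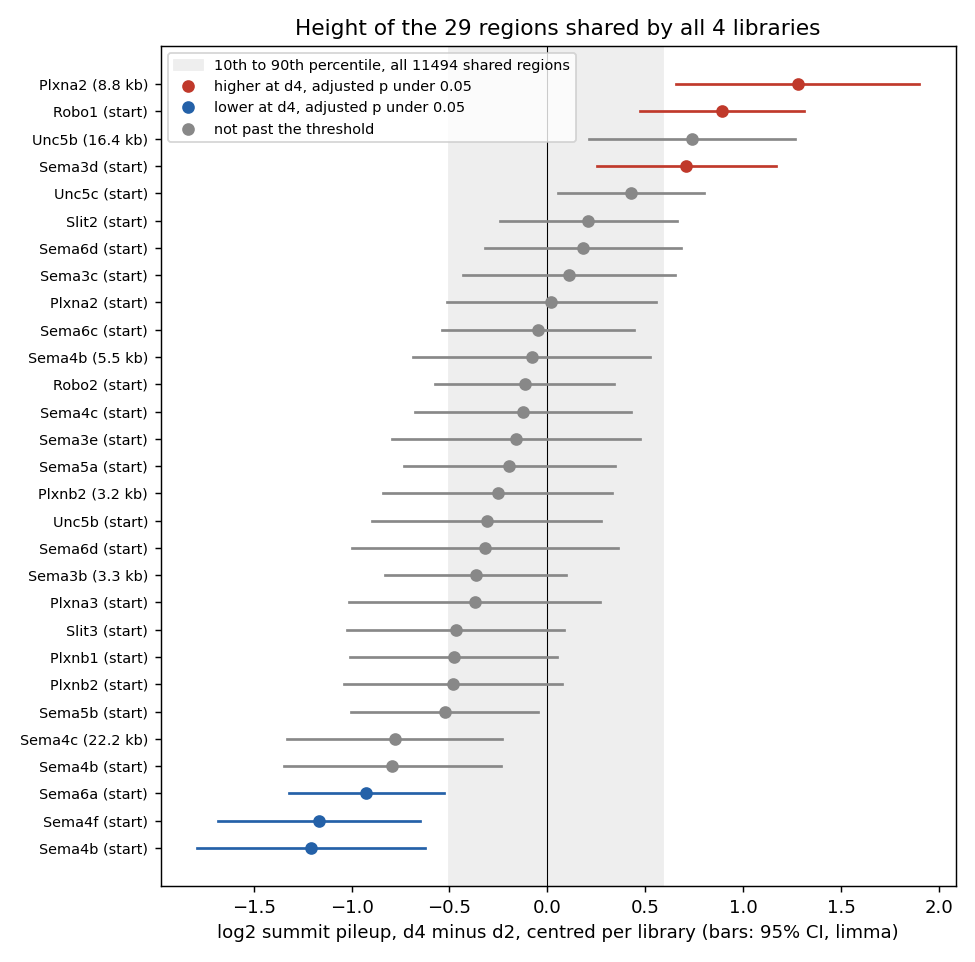
Points give the difference in log2 summit pileup, d4 minus d2, of the 29 shared regions, with 95% confidence intervals from limma, labelled by gene and distance to the start, and the grey band, from −0.50 to 0.59, spans the lowest to the highest decile limit of all 11494 shared regions. The regions past the threshold are those of Plxna2, Robo1 and Sema3d at the high end and of Sema6a, Sema4f and Sema4b at the low end.

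Both strands of the 100 bp on each side of the summit were read for motif letters. For GATA factors the letters were AGATAA, the same ending in G as AGATAG, and the forms TGATAA and, ending in G, TGATAG. ETS factors were given CAGGAAG with the variant CCGGAAG. AP-1 was searched as TGANTCA, where N is any base, and TEAD as GGAATG. Forkhead factors were searched as TGTTTNC and POU factors as ATGCNAAT. SOX factors were searched as ACAATG and KLF factors as GGGNGTGG. The TEAD and SOX letters share their last 4 bases. GATA letters were in 5 of the 15 gained regions (33.3%, 95% Wilson interval 15.2 to 58.3), against 60.4% of all gained regions and 20.6% of all regions. The 5 were 2 of Unc5c and 1 each of Sema3e, Sema5a and Slit3. TEAD letters and ETS letters were each in 6 of the 15 (40.0%, 19.8 to 64.3), against 23.1% and 20.6% of all gained regions. Around the summit of the second library each was in 4 of the 15 (26.7%), against 22.4% and 20.7%. With 150 bp on each side the shares were 46.7% for TEAD and 53.3% for ETS, against 29.5% and 27.3%.

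The AP-1 letters were in 3 gained regions, of Sema3e, Sema6a and Sema6b (20%, 7.05 to 45.2), against 11.4% of all gained regions and 5.67% of all regions. Around the summit of the second library the share was 6.67%. POU letters were in none of the 15. SOX letters were also in none, but in 2 of the 15 (13.3%) with 150 bp on each side and in 1 (6.67%) around the summit of the second library. Among the 22 lost regions, 4 held SOX letters (18.2%, 7.31 to 38.5, against 9.83% of all lost regions), 2 of Sema6d and 1 each of Sema3e and Sema4c. The POU letters were in 2 lost regions, of Plxna1 and Plxna4 (9.09%, 2.53 to 27.8, against 6.10%). Forkhead letters were in 6 lost regions (27.3%, 13.2 to 48.2), against 11.7% of all lost regions, a value below that interval. Of the 22 lost regions 18 were distal, and the share over all distal lost regions was 14.3%, a value within it. Around the summit of the second library 5 of the 22 held forkhead letters (22.7%, against 11.8%). With 150 bp on each side 7 did (31.8%, against 18%), and these differences were not tested. Forkhead letters were also in 5 gained regions (33.3%, 15.2 to 58.3, against 23.4% of all gained regions). KLF letters were in 3 lost (13.6%, 4.75 to 33.3, against 14.1%) and 2 gained regions (13.3%, 3.74 to 37.9, against 7.91%). None of the 29 shared regions held GATA letters (0 to 11.7), against 9.42% of all shared regions. With 150 bp on each side 2 of the 29 did (6.90%, against 14.2%), and 2 did around the summit of the second library (against 9.77%). Median GC content was 51.7% in gained, 56.2% in lost and 67.7% in shared regions of the guidance genes. No letters absent from these windows say anything about a factor.

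Partner genes came from 2 lists, 23 other receptors and ligands (neuropilins, DCC-type receptors, Flrt proteins, glypicans and the like) and 35 effectors of the cytoskeleton and small GTPases. Of the 58 genes, 53 had a region, and of their 227 regions 31 were gained and 34 were lost (13.7% and 15.0%, against the 8.48% and 13.2% of all regions given above). The effectors had 25 gained and 20 lost among 138 regions (18.1% and 14.5%). The receptors and ligands had 6 and 14 among 89 (6.74% and 15.7%). Gains exceeded losses by at least 2 at Farp1, an exchange factor tied to A-type plexins (5 gained, none lost), Rras2, an R-Ras family GTPase (4 and 1), Tiam1, an exchange factor for Rac (4 and 1), Fyn, a Src family kinase (2 and 0), Srgap3, a Slit-Robo GTPase-activating protein (2 and 0), and Gpc1, a heparan sulphate proteoglycan that binds Slit (2 and 0). Losses exceeded gains by at least 2 at Trio, an exchange factor acting below netrin receptors (2 and 5), Rgma, a repulsive guidance molecule (0 and 3), Crmp1, a collapsin response mediator (0 and 2), Ablim1, an actin-binding protein (0 and 2), Ntng1, a membrane-anchored netrin relative (0 and 2), and Dscam, a netrin receptor of the immunoglobulin family (0 and 2). Gains exceeded losses by that margin at 6 genes and losses exceeded gains at 6. Of the co-receptor genes, Nrp1 had none gained or lost among 6 regions, and Nrp2 had 1 gained and 2 lost among 9.

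Of the 51 shared regions of partner genes, 3 were higher and 2 were lower at d4 by the same test, beside 6.14% and 2.78% of all shared regions. These 5, named after their values were seen, were at Ablim1 (1.09, limma adjusted p = 0.0172), Flrt3 (1.02, 0.0137), Itgb1 (0.83, 0.00619), Srgap1 (−0.82, 0.0479) and Unc5a (−1.13, 0.0111). Unc5a is a netrin receptor outside the 38 genes, and its region was among the lower ones.

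Markers of other cell types were counted in the same way, beside the 8.48% gained and 13.2% lost of all regions. Genes of neural fate had 27 and 23 peaks at d2 and 14 and 12 at d4, with 1 gained (3.03%) and 9 lost (27.3%) among 33 regions, and pluripotency genes had 20 and 23 against 12 and 13, with 3 gained (9.38%) and 5 lost (15.6%) among 32. Endothelial genes had 16 and 13 against 21 and 17, with 5 gained (12.5%) and 4 lost (10.0%) among 40 regions, and Tie1 and Emcn had none. Cardiac genes had 4 gained and 1 lost among 16 regions, early mesoderm genes 4 and 1 among 24, blood genes 2 and 3 among 18, and endoderm genes 4 and 6 among 24, with no region at Gata1 or Afp. Their part in the values of the guidance genes was not tested.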

How the data were processed

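ATAC-seq peak lists of 2 d2 and 2 d4 libraries of ES-E14TG2a mESCs were analysed, grouped by their labels. Reads, by the methods of the study and the notes of the submitters, were checked with FastQC, trimmed with cutadapt, aligned to mm10 with Bowtie2, freed of mitochondrial, duplicate and multiply mapped reads, and passed to MACS2 in each library on its own, with blacklisted peaks removed and paired-end mode named among the settings. The deposited fold enrichment is the authors' ratio of pileup to local background at a summit, and the deposited −log10 p and −log10 q are the authors' Poisson values. Pileup and background were solved from the fold and p (100% of peaks, within 0.01 in −log10 p). If the shift and extension that the methods also name were applied in place of paired-end mode, a pileup would count extended reads rather than fragments. Median summit pileups of 16 to 18 limit precision.

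Peaks were merged, assigned with GENCODE M21 (annotation of GRCm38, the build of mm10) and classed as described above, with Python 3.11.15 and pandas 2.3.3. A region with several starts at equal distance went to the start nearest its midpoint. Distances run from the start to the nearest edge of a region. The height test was limma 3.58.1 with a variance trend (R 4.3.3), tested on simulated data, with no replicate block. Gained and lost calls had no test, and no set test was run. Named were all genes with a gained or lost region, genes with a shared region past 0.05, and partner genes with a net count of at least 2 in size. Alternatives were stricter peaks, wider merging, other assignment rules, other scalings of height, leaving out each library, and for motifs a window of 150 bp or the summit of the second library. The members and lists were chosen with earlier results of these data known. The spread is that between independent differentiations, with n = 2.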

Additional observations from a re-analysis of the deposited data

How the results depend on the processing

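The count of lost regions moved from 22 to 12 with −log10 q of at least 10 and to 8 with the 15000 best peaks of each library, while that over all regions moved from 4638 to 2366 and to 1996. As shares of the guidance regions the lost ones were 17.1%, 16.9% and 10.7%, against 13.2%, 11.6% and 9.26% of all regions. The gained ones were 11.6%, 18.3% and 18.7%, against 8.48%, 7.10% and 9.41% of all regions. Leaving out each library in turn gave 17 to 29 gained regions (15 with all libraries) and 23 to 37 lost regions, since the remaining library then decides alone. The net of gained and lost regions reversed at Plxna1, from −1 to 2, under both stricter peak selections, at Sema4d, from 1 to −1, without d2 replicate 1, and at Sema6d, from −1 to 1, without d4 replicate 2 (it was −3 without d2 replicate 2).

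Of the shared regions, 3 were higher and 3 lower at d4 in limma. Without centring these counts were 0 and 5, with the deposited fold enrichment 0 and 1, with quantile normalisation 1 and 2, and without a variance trend 1 and 3. At an unadjusted p under 0.05, limma gave 15 of the 29 in either direction without centring and 6 with the fold enrichment. Leaving out each library gave 0 to 3 higher and 2 to 4 lower. With the replicate block, 3 were higher and 4 lower, and over all shared regions 814 and 360, against 706 and 319 without it. The labels do not say whether d2 and d4 libraries of the same replicate number came from the same differentiation. The correlation of their deviations was 0.01 over 11494 regions, which cannot settle whether they were paired.

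At the summit of the second library, AP-1 letters were in 6.67% of gained and 0% of lost regions of the guidance genes, against 20% and 4.55%. The 58 other alternatives of the counts and motif shares stayed within the bounds set for them. For a motif share the bounds were its Wilson interval, which is wide for so few regions. Depth limits the calls at a summit pileup of 6 or 7, and the cause of the changes named here was not tested.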
